A study of Mus musculus with 28 samples.

Results

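Cells of the Aspm line were compared between back skin and tail skin. The members are 5 Aspm+ libraries of 28 in the series, chosen by their labels: back replicates 1, 2 and 4 and tail replicates 1 and 2. The same line also gave 5 libraries of total interfollicular epidermis (IFE, the epidermis between the hair follicles), numbered in the same way, and the site difference in those totals served as the reference. All 10 libraries came from AspmCreER x RosatdTomato mice, labelled wild type, given tamoxifen daily for 5 days, postnatal days 30 to 34, and harvested 2 weeks later, on postnatal day 49, in telogen, the resting phase of the hair cycle. The other libraries come from back and tail skin of the Slc1a3, K14 and Dlx1 lines and entered the model to estimate the spread between libraries. They also entered the choice of genes tested and the scaling.

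In this design, tamoxifen lets the Cre recombinase switch on the red protein tdTomato for good, so that a cell carrying it, or descended from one that did, stays marked. Aspm encodes a protein of the mitotic spindle poles, and the driver therefore marks cells by their state at the time of tamoxifen and not at harvest. The labels do not say whether libraries came from separate animals, and the p-values therefore measure the spread between these libraries, which may be technical in part. No batch, strain or sex was given in the labels used here, and a batch that differs between the sites cannot be told apart from the site.

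Mouse back skin is densely haired with a thin epidermis, whereas tail skin has a thicker epidermis arranged in rings, with scales that keratinise differently from the interscale regions around the follicles. Position along the body axis is recorded in skin by the homeobox genes of the Hox clusters, of which the members with higher numbers are used towards the tail. Keratinocytes also present antigen through MHC class I and express ligands for the T cells that live in the epidermis.

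Each library held between 16181862 and 35604425 counts in the Aspm+ cells and between 15430860 and 28334458 in the totals, with 18375 to 21052 genes detected and 0.992 to 2.32% of counts on mitochondrial genes in the 10 Aspm libraries. Replicates of a group correlated across genes at 0.978 to 0.989 on the log2 scale. The first principal component of the 10 libraries held 68.35% of the variance and separated back (-55.8 to -45.6) from tail (75.0 to 81.2), with labelled and total libraries side by side. The second held 7.90% and set back replicate 1 of both populations (36.97 and 39.97) apart from the other 8 libraries (-26.2 to 6.80). Levels are given as CPM, counts scaled to 1000000 per library on TMM-scaled library sizes, a level with ± is the mean and SD over 3 back or 2 tail libraries, and a log2 change is back minus tail ± its standard error. A gene passed when its Benjamini-Hochberg adjusted p in edgeR's quasi-likelihood test was under 0.05.

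Aspm+ cells of back and tail differed in a large part of the genes measured. Of 17493 genes tested, 4766 passed (27.2%), of which 2545 (14.5% of those tested) were higher in back and 2221 (12.7%) were higher in tail. The change was at least 1 on the log2 scale for 2875 of the genes that passed (16.4% of those tested), at least 2 for 1552 (8.87%) and at least 3 for 1028 (5.88%). In 4694 of them (26.8% of those tested) the back and tail libraries did not overlap, while 9184 of all genes tested (52.5%) did not overlap. Without tail replicate 1 or tail replicate 2 fewer genes passed. In these fits a single tail library stood for its group, and the number of genes tested rose to 19267 and 19276. The cause of the drop was not tested. Leaving out back replicate 1, which stood apart on the second component, gave 4540. The fit without 1 back Slc1a3 total library, in which few genes were detected, gave 5851.

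H2-M3, Pyy and Hoxd11 marked the 2 sites. H2-M3, an MHC class Ib molecule that presents formylated peptides (chr17:37270220-37274484, + strand), was at 39.5, 24.1 and 36.9 CPM in back replicates 1, 2 and 4 and at 0 in both tail libraries. Against a floor of 3 counts per library it was at least 201-fold higher in back (adjusted p = 6.35e-09). Pyy encodes peptide YY, a hormone peptide best known from the gut (chr11:102106676-102107832, - strand). It was at 15.8, 2.62 and 45 CPM in back and at 0 in both tail libraries, at least 127-fold higher in back (adjusted p = 0.00261). Its back libraries spread widely, with replicate 2 lowest in the Aspm+ cells and in the totals (19.7, 3.57 and 50.8 CPM), and its call was lost with limma-voom. Hoxd11, a posterior homeobox gene (chr2:74679557-74687016, + strand), went the other way. It was at 0 in all 3 back libraries and at 45.7 and 51.4 CPM in tail, at least 372-fold higher in tail (adjusted p = 4.76e-12).

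The other lines gave the same order for these genes. Mean H2-M3 ran from 30.8 to 36.7 CPM over the other back groups and from 0.176 to 0.595 CPM over the other tail groups. For Pyy the ranges were 28.6 to 37.2 CPM in back and 0 to 0.644 CPM in tail, and for Hoxd11 they were 0 to 0.106 CPM in back and 45.6 to 51 CPM in tail. Aspm itself was at 11.2, 20.4 and 18.1 CPM in Aspm+ back and at 18 and 18.7 CPM in Aspm+ tail, and its change of -0.14 ± 0.33 did not pass (adjusted p = 0.797). The totals of the same line held similar levels, with means of 14.7 ± 6.51 CPM in back and 22.2 ± 2.12 CPM in tail. Their back and tail libraries did not overlap for Aspm, and the change of -0.61 did not pass (adjusted p = 0.201). With the replicate number as a block in the edgeR fit it passed (-0.77, adjusted p = 0.0322). The basal keratins Krt5 and Krt14, which mark IFE, were abundant at both sites and are given with the other keratins.

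**Figure D1:**
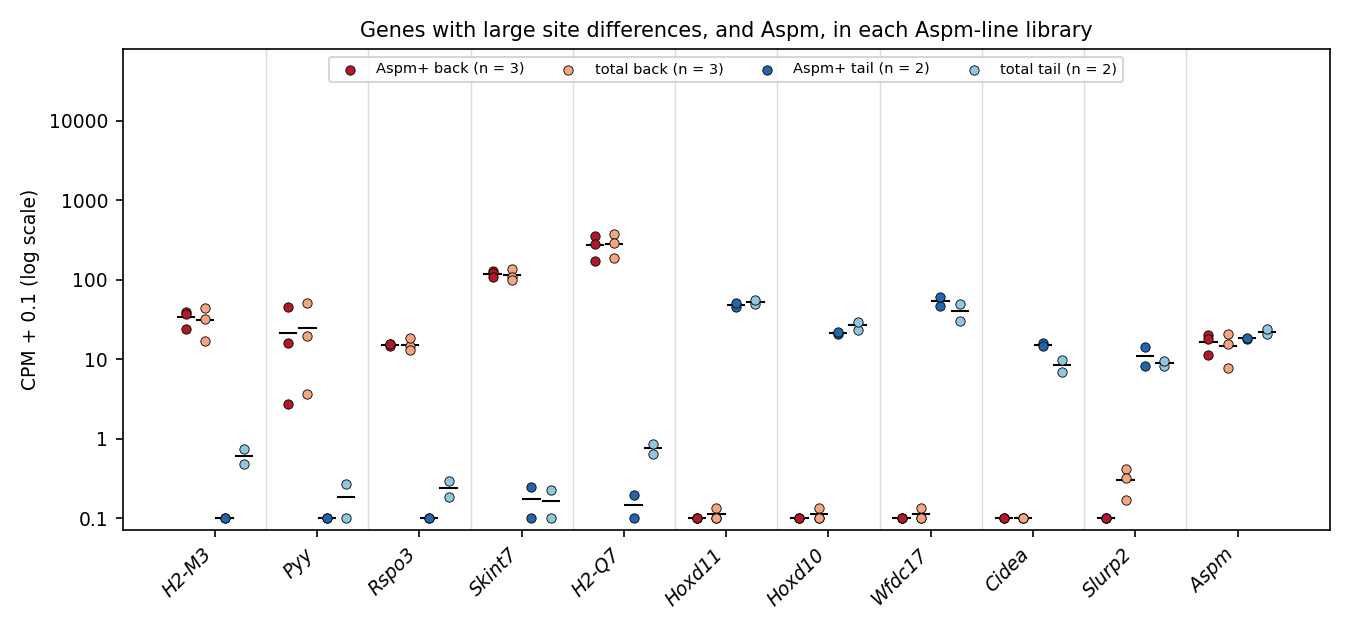
Level of 11 genes in each Aspm-line library, as CPM plus 0.1 on a log axis. Points are libraries (3 back and 2 tail in each population) and short lines are group means. H2-M3 to H2-Q7 lie high in back, and Hoxd11 to Slurp2 lie high in tail. Aspm overlaps between sites in the Aspm+ cells and not in the totals. The total libraries lie close to the Aspm+ libraries of their site.

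The Hox genes split by position in their clusters. Of 16 posterior genes (numbers 9 to 13), 12 were tested, 11 were higher in tail and 0 were higher in back. That is 91.7% of those tested, beside 12.7% of all genes tested. Hoxc9 did not pass (0.27 ± 0.0798 against 1.16 ± 0.499 CPM, adjusted p = 0.125). Hoxa13, Hoxb13, Hoxd12 and Hoxd13 were at 0 in all 5 Aspm+ libraries and were not tested. The summed level of the list ran from 3.25 to 11.8 CPM in back and from 344 to 388 CPM in tail. The tested members had a median change of -8.61, or -5.95 with members at 0 held at their bound, beside 0.05 over all genes tested. Since members absent from back could be tested only through their tail libraries, the count describes the members that were measurable.

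In the Hoxd cluster on chromosome 2, Hoxd10 was at 0 in back and at 20.5 and 21.8 CPM in tail, at least 162-fold higher (adjusted p = 7.84e-10). Hoxd9 was at 0.305, 0.0285 and 0 CPM in back and at 74.9 and 68.7 CPM in tail, a change of -9.47 ± 0.72 (adjusted p = 1.47e-09). Its neighbour Hoxd8 was counted among the anterior and central genes, yet it had the tail pattern of the posterior members, at 0.458, 0 and 0 CPM in back and 56 and 66.2 CPM in tail (adjusted p = 1.02e-09). Back replicate 1 held all back counts of Hoxd8, and without it the log2 changes were -13.41 for Hoxd8 and -11.57 for Hoxd9, beside -8.87 ± 0.66 and -9.47 ± 0.72 with all libraries. Hoxd4 was at 0 in back and averaged 1.87 ± 0.434 CPM in tail. Hoxd3os1, which the annotation places on the opposite strand in this cluster, was at 0 in back and at 31.1 and 25.7 CPM in tail, at least 218-fold higher. The libraries were not stranded, so reads from Hoxd3os1 cannot be told apart from reads of an overlapping gene.

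In the Hoxc cluster on chromosome 15 the direction changed along the cluster. Hoxc13, known for its role in hair and nail keratin expression, was at 1.07, 0.826 and 0.509 CPM in back and 69 and 104 CPM in tail, 108-fold higher in tail (adjusted p = 6.91e-10). Hoxc11 was at 0 in back and at 13.5 and 12.6 CPM in tail, at least 100.1-fold higher. Hoxc8 was higher in back, at 9.57, 22 and 30.2 CPM against 0.244 and 0.497 CPM in tail, with no overlap between sites (5.81 ± 0.63, adjusted p = 2.62e-07). Hoxc4 was also higher in back, at 13.9, 14.3 and 11.9 against 0.488 and 0 CPM (5.62 ± 0.57, adjusted p = 7.83e-08), a change that ran from 4.76 without tail replicate 2 to 11.20 without tail replicate 1. Hoxc6 averaged 13 ± 5.08 CPM in back and 0.837 ± 0.129 CPM in tail (adjusted p = 1.41e-05).

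Changes in both directions were also found in the Hoxa and Hoxb clusters. Hoxa5 was at 35.8, 34.3 and 51.2 CPM in back and 3.96 and 4.54 CPM in tail, 9.52-fold higher in back (adjusted p = 2.4e-07). Hoxa9 averaged 2.86 ± 1.92 CPM in back and 76 ± 3.98 CPM in tail (adjusted p = 1.09e-07). Hoxb8 was higher in back, with means of 11.2 ± 3.88 CPM in back and 1.56 ± 0.343 CPM in tail, and Hoxb9 was higher in tail, with means of 3.91 ± 2.46 and 13.4 ± 1.73 CPM in back and tail. In all, 13 of 20 tested anterior and central genes were higher in back, and Hoxd8 and Hoxd4 were the 2 higher in tail. Together they made up 75% of those tested, beside 27.2% of all genes tested. Hoxb5 averaged 2.1 ± 0.821 CPM in back and 2.04 ± 0.0781 CPM in tail and did not pass (adjusted p = 0.966).

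**Figure D2:**
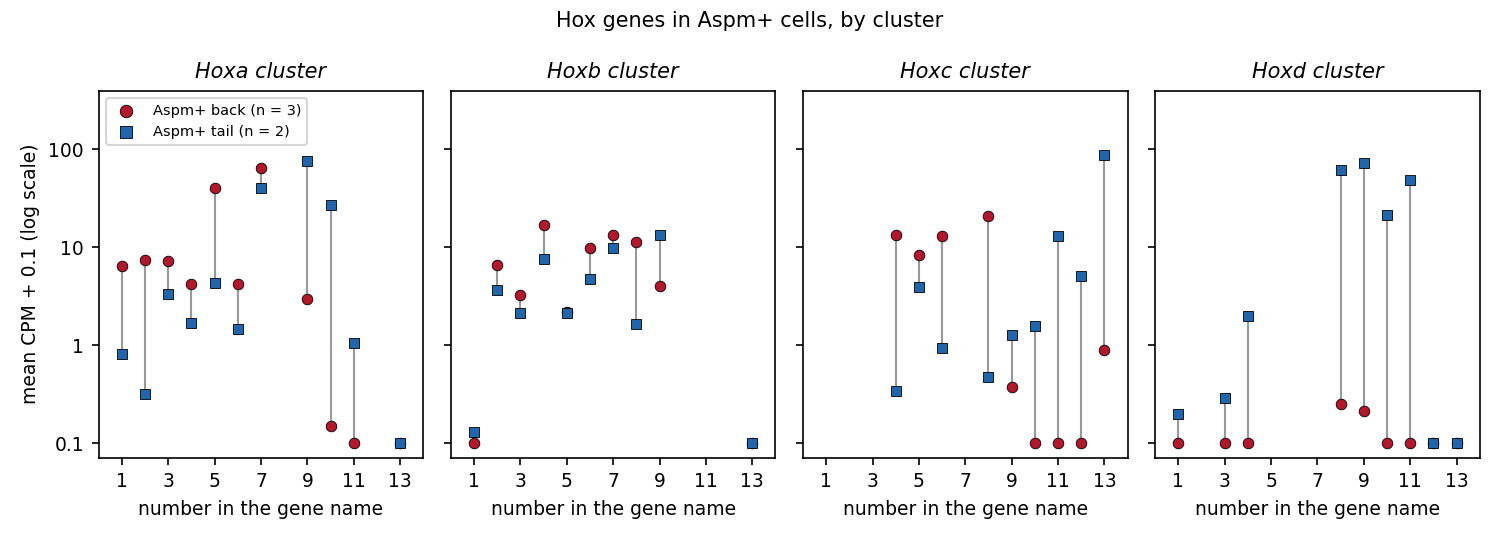
Mean level of each Hox gene in Aspm+ back (3 libraries) and tail (2 libraries), as CPM plus 0.1 on a log axis, against its number in each of the 4 clusters; a grey line joins the 2 means of a gene. Genes with high numbers lie higher in tail, and most with low numbers lie higher in back, except Hoxd4 and Hoxd8.

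Other homeobox and T-box genes also differed, and 11 of 23 tested were higher in tail and 4 in back, 65.2% beside 27.2% of all genes. The Dlx family of distal-less homeobox genes was higher in tail in each of the 5 members tested. Dlx3, a regulator of keratinocyte differentiation, was at 0.356, 0.683 and 0.764 CPM in back and 31.2 and 37.4 CPM in tail (-5.80 ± 0.67, adjusted p = 6.94e-07). Dlx1, the gene that names another line of the series, averaged 0.17 ± 0.251 CPM in back and 7.95 ± 1.13 CPM in tail (adjusted p = 0.000317). Without back replicate 4, which held most of its back counts, the log2 change of Dlx1 was -8.35, beside -5.70 ± 1.07 with all libraries. Dlx4 was at 0.967, 0.57 and 0.764 CPM in back and at 10.9 and 10.8 CPM in tail. Six2 was at 0, 0.057 and 0 CPM in back and 15.1 and 11.4 CPM in tail. With 2 counts in back, its tail level was 502 times the back level (95% counting interval 138 to 4154). Satb1, a chromatin organiser in epidermal progenitors, was higher in back at 118, 97.4 and 80.9 CPM against 19.2 and 16.4 CPM (adjusted p = 1.2e-08). Irx4 averaged 8.31 ± 6.12 CPM in back and 86.9 ± 14.9 CPM in tail (adjusted p = 4.4e-05).

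Genes of antigen presentation by MHC class I were far higher in back than in tail. Of 22 genes of class I and its peptide supply, all tested, 20 were higher in back (90.9%, beside 14.5% of all genes tested). None (0) was higher in tail, and the median change was 4.61. The list summed to between 6158 and 9536 CPM in the back libraries and to between 641 and 671 CPM in the tail libraries. H2-T24 (1.70 ± 0.65, adjusted p = 0.0564) and Psmb10 (1.0 ± 0.38, adjusted p = 0.0536) did not pass.

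The heavy chains hold the peptide. H2-K1 (chr17:33996017-34000347, - strand) was at 1985, 1306 and 1769 CPM in back and at 80.3 and 84.9 CPM in tail, 20.4-fold higher in back (4.35 ± 0.24, adjusted p = 4.76e-12). H2-D1 averaged 1948 ± 358 CPM in back and 263 ± 1.56 CPM in tail, the smaller change of the 2 classical chains (2.89 ± 0.20, adjusted p = 1.65e-10). H2-Q4 was at 339, 188 and 245 CPM in back and 7.47 and 7.71 CPM in tail (adjusted p = 1.79e-11). H2-Q7 was at 359.7, 171 and 279 CPM in back, while its tail libraries held 2 counts in all, a ratio of 4559 (95% counting interval 1262 to 37648, adjusted p = 1.14e-12). H2-Q6 and H2-Q7 are near-identical copies, and how their shared reads were counted is not given in the sources used here, so the split between them is uncertain.

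The light chain, the peptide supply and their activator moved with the heavy chains. B2m, the light chain of every class I molecule (chr2:122147686-122153083, + strand), was at 1921, 1597 and 2656 CPM in back and at 48.9 and 43.5 CPM in tail, 44.5-fold higher in back (5.48 ± 0.40, adjusted p = 3.44e-10). Nlrc5, the transactivator of class I genes, was at 246, 112 and 135 CPM in back and at 1.07 and 0.497 CPM in tail, 209-fold higher in back (adjusted p = 1.8e-11). The immunoproteasome subunit Psmb8 averaged 167 ± 66.4 CPM in back and 2.11 ± 1.58 CPM in tail, and the peptide transporter Tap1 averaged 349 ± 131 CPM in back and 35.4 ± 4.24 CPM in tail. In these genes no back library overlapped a tail library, and replicate 2 was the lowest back library in each. Without tail replicate 1, the log2 change of Nlrc5 was 8.34, beside 7.65 ± 0.46 with all libraries.

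Genes of the interferon response were also higher in back. Of 24, all tested, 15 were higher in back (62.5%, beside 14.5% of all genes tested) and 0 were higher in tail. The median change was 3.27, or 2.57 with genes at 0 held at their bound. Their sum was between 382 and 825 CPM in back, lowest in replicate 2, and between 131 and 139 CPM in tail. Usp18, a negative regulator of interferon signalling, was at 30.2, 23.8 and 41.6 CPM in back and had 1 count over both tail libraries, a ratio of 1105 (95% counting interval 198 to 43651, adjusted p = 1.23e-10). Oas1a, a sensor of double-stranded RNA, was at 6.67, 3.1 and 10.8 CPM in back and 0 in tail, at least 41.3-fold higher. Gbp7, a guanylate-binding protein of the same response, was at 7.79, 9.06 and 19.9 CPM in back and 0 in tail, at least 73.6-fold higher.

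Further members of the list were measurable at both sites. The cytoplasmic RNA sensor Ifih1 was at 34.3, 41.5 and 54.8 CPM in back and 4.35 and 2.8 CPM in tail (adjusted p = 6.83e-07). Gbp2 averaged 97 ± 50.8 CPM in back and 1.55 ± 0.804 CPM in tail (adjusted p = 4.94e-05). Several classical targets were low at both sites and did not pass, among them Isg15 at 2.83 ± 1.78 against 0.529 ± 0.747 CPM (adjusted p = 0.145) and Mx1 at 0.308 ± 0.23 against 0.122 ± 0.173 CPM (adjusted p = 0.619).

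Because these genes were higher in back together, the 250 bases before their RefSeq starts (GRCm38.p6) were searched on both strands for the interferon-stimulated response element, taken as GAAA, any 2 bases and GAAA again, and for its shorter core AANNGAAA, which overlaps the longer motif. The 4 windows below are shown for the light chain, both kinds of heavy chain and an interferon target, 5′ to 3′ on the strand of the gene, with the matches in capitals.
B2m: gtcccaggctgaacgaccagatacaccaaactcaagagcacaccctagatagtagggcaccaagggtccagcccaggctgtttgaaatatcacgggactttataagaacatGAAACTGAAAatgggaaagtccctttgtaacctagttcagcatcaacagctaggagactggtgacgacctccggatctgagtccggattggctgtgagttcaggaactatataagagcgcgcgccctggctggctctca
H2-K1: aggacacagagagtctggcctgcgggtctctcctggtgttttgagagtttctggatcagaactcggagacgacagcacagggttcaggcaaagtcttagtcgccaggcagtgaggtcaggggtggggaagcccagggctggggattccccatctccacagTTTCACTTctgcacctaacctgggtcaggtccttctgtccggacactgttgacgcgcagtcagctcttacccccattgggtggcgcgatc
H2-Q7: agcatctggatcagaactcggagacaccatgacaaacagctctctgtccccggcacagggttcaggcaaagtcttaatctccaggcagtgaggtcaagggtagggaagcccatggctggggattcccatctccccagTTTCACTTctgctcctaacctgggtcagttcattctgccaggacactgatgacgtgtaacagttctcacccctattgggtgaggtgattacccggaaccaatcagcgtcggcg
Gbp2: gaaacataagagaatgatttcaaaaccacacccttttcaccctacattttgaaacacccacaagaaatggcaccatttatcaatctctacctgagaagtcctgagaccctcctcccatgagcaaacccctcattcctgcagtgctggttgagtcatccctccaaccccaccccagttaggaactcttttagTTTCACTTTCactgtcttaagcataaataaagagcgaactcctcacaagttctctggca

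These windows are chr2:122147437-122147686 for B2m, chr17:34000348-34000597 for H2-K1 (1 of its 2 windows in the table), chr17:35438905-35439154 for H2-Q7 and chr3:142620413-142620662 for Gbp2. The longer motif was found in 10 of the 19 interferon genes with a window in the table (52.6%), in 3 of 18 class I genes (16.7%), in 1 of 16 Skint family genes and related ligands (6.25%), in 0 of 9 posterior Hox genes and in 3.46% of all 27025 genes. The core was found in 12 of 19 interferon genes (63.2%), in 12 of 18 class I genes (66.7%), in 8 of 16 Skint family genes and related ligands (50%), in 2 of 9 posterior Hox genes (22.2%) and in 23.9% of all genes. In H2-K1 and H2-Q7 the core lies 90 and 113 bases before the start, with the match on the strand opposite to the gene. Neither motif was found in the windows of Tap1 and Irf9. A match describes the letters in the window and does not show that the element is used.

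Genes of the Skint family were another group higher in back. Of 15 tested genes of the Skint family and related ligands, 10 were higher in back (66.7%, beside 14.5% of all genes tested) and 0 in tail. Skint1, which in the thymus selects the gamma-delta T cells that later settle in mouse epidermis, was at 74.5, 53.9 and 60.4 CPM in back and 9.04 and 10.4 CPM in tail, 6.48-fold higher in back (adjusted p = 4.57e-08). Skint7 was at 127, 123 and 107 CPM in back against 3 counts over both tail libraries, a ratio of 1461 (95% counting interval 499.9 to 7088, adjusted p = 2.67e-12). Skint9 was at 20.4, 24.5 and 19.8 CPM in back and 0.293 and 0.373 CPM in tail, and Skint3 at 14.1, 28.2 and 24.3 CPM in back and 0.733 and 1.49 CPM in tail. Skint5 was at 5.19, 9.0 and 4.18 CPM in back and 0 in tail, at least 36.8-fold higher. Skint4 averaged 23.8 ± 4.57 CPM in back and 17.8 ± 6.76 CPM in tail and did not pass (adjusted p = 0.467). The Skint genes are similar copies on chromosome 4, so the values of single members are uncertain where reads are shared.

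Markers of immune cells were present at both sites. The list of Langerhans and T cell genes summed to 207 to 355 CPM in back and 145 to 266 CPM in tail, mostly from Thy1, Epcam and MHC class II genes, which keratinocytes or other cells can also express. Of its 16 tested members 5 were higher in back and 1, Mfge8, was higher in tail (2.71 ± 1.09 against 46.3 ± 0.6 CPM). Together they made up 37.5% of the tested members, beside 27.2% of all genes tested. The Langerhans marker Cd207 averaged 1.56 ± 0.542 CPM in back and 1.07 ± 0.631 CPM in tail, and the leukocyte marker Ptprc averaged 1.24 ± 0.769 CPM in back and was at 0 in tail. The T cell gene Cd3g was at 0.153, 1.17 and 1.83 CPM in back and 0 in tail, a call lost without either tail library. Of the 20 members, 8 were at 0 in both tail libraries, and the part of immune cells in the class I, interferon and Skint differences was not tested. In bulk libraries, fewer cells of a type and less RNA per cell cannot be told apart.

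Keratin genes differed strongly between the sites. Krt77, a keratin of the suprabasal epidermis, was at 2596, 2402 and 1474 CPM in back and at 3.13 and 3.92 CPM in tail, 613-fold higher in back (adjusted p = 4.76e-12). Krt2, a keratin of late epidermal differentiation, went the other way at 13.6, 12 and 11.9 CPM in back and 6974 and 6477 CPM in tail, 538-fold higher in tail (adjusted p = 7.51e-08). Of 13 tested members of the list of scale and hard keratins, which also holds Krt2, 8 were higher in tail and 1, Krt32, was higher in back. Those that passed made up 69.2% of the list, beside 27.2% of all genes tested. The list summed to 44.3 to 65.6 CPM in back and 10795 to 10850 CPM in tail.

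The largest part of that tail sum came from Krt2, which is not a hard keratin, and most of the rest from Krt36 and Krt84. Krt36, an acidic hair-type keratin found in tail scales, was at 6.06, 0.171 and 0 CPM in back and 1732 and 1968 CPM in tail (-9.91 ± 1.66, adjusted p = 0.000265). Krt84, a basic hair-type keratin, was at 10.9, 0.0854 and 0.407 CPM in back and 2115 and 2314 CPM in tail (-9.27 ± 1.72, adjusted p = 0.000662). Back replicate 1 was the highest back library for both genes, and no back library came near the tail libraries. Without it the log2 change of Krt36 was -14.01. Krt32 was at 30.8, 26.8 and 30.3 CPM in back and 6.94 and 9.08 CPM in tail (adjusted p = 1.92e-05).

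Basal keratinocyte genes were abundant at both sites and moved in both directions. Of 17 tested, 5 were higher in back and 7 in tail (70.6%, beside 27.2% of all genes tested), with a median change of 0.05. Krt5, the basic keratin of the basal layer, averaged 26214 ± 1166 CPM in back and 39738 ± 1342 CPM in tail (adjusted p = 0.00682). Its partner Krt14 was at 11116, 12371 and 16576 CPM in back and 37890.0 and 39160.0 CPM in tail, 2.88-fold higher in tail (adjusted p = 0.0001). Krt15, a basal keratin that is also strong in the follicle bulge, was at 18149, 17962 and 18498 CPM in back and 3246 and 2666 CPM in tail, 6.16-fold higher in back (adjusted p = 2.07e-10). Bcl11b, a zinc finger factor of epidermal progenitors, and Igfbp3, which binds insulin-like growth factors, were both higher in back, with log2 changes of 1.47 ± 0.21 and 1.53 ± 0.23. The hemidesmosome gene Col17a1 averaged 6539.6 ± 1278 CPM in back and 6316 ± 725 CPM in tail and the basal regulator Trp63 1145 ± 72.6 and 835 ± 99.3 CPM in back and tail, and neither passed (adjusted p = 0.851 and 0.0585).

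More genes of differentiation were higher in tail than in back. Of 31 tested, 17 were higher in tail and 5 in back (71.0%, beside 27.2% of all genes tested), with a median change of -1.48. The summed level of the list overlapped between the sites, at 12099 to 15723 CPM in back and 12682 to 14687 CPM in tail. Calml3, a calmodulin-like protein of differentiating epithelium, was at 10.7, 7.2 and 7.44 CPM in back and 157 and 157 CPM in tail (adjusted p = 1.8e-08). Krtdap, a secreted protein of the suprabasal layers, was at 255, 221 and 150.1 CPM in back and 1188 and 1298 CPM in tail (adjusted p = 3.35e-08). The desquamation protease Klk7 was at 2.04, 1.79 and 1.99 CPM in back and 22 and 44 CPM in tail. The cornified envelope genes Lor (5.31 ± 2.28 against 58.1 ± 38.8 CPM) and Flg (0.0624 ± 0.0547 against 2.05 ± 1.32 CPM) were also higher in tail, at low levels. Klk7 changed by -3.5 without tail replicate 2, beside -4.09 ± 0.42 with all libraries.

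The early differentiation keratins had other values. Krt1 averaged 4152 ± 544 CPM in back and 2585 ± 456 CPM in tail and was higher in back (0.68 ± 0.25, adjusted p = 0.0414). Its partner Krt10 averaged 5443 ± 607 CPM in back and 7358 ± 1009 CPM in tail and did not pass (adjusted p = 0.128). The protease inhibitor Spink5, which restrains desquamation, was higher in back at 112 ± 27.7 against 22.8 ± 2.28 CPM (adjusted p = 1.28e-05). Involucrin, Ivl, averaged 1.99 ± 0.587 CPM in back and 2.21 ± 1.54 CPM in tail and did not pass (adjusted p = 0.889).

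Stress and appendage keratins were divided, with 6 of 15 higher in tail and 4 higher in back, 66.7% beside 27.2% of all genes tested. Krt6a, induced in wounded and rapidly renewing epidermis, was at 4.28, 4.78 and 2.85 CPM in back and 66.8 and 58.4 CPM in tail, 15.8-fold higher in tail (adjusted p = 1.5e-08). Krt16 averaged 13.7 ± 4.07 CPM in back and 59.3 ± 11.4 CPM in tail and was also higher in tail. Krt79, a keratin of the upper follicle and sebaceous duct, was at 45.6, 62 and 60.8 CPM in back and 335 and 279 CPM in tail, and Krt7 at 7.99, 3.53 and 8.2 CPM in back and 62.1 and 44.3 CPM in tail. Krt80, an early differentiation keratin, was higher in back at 623, 495 and 430.0 CPM against 160.4 and 126 CPM (adjusted p = 1.28e-08).

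**Figure D3:**
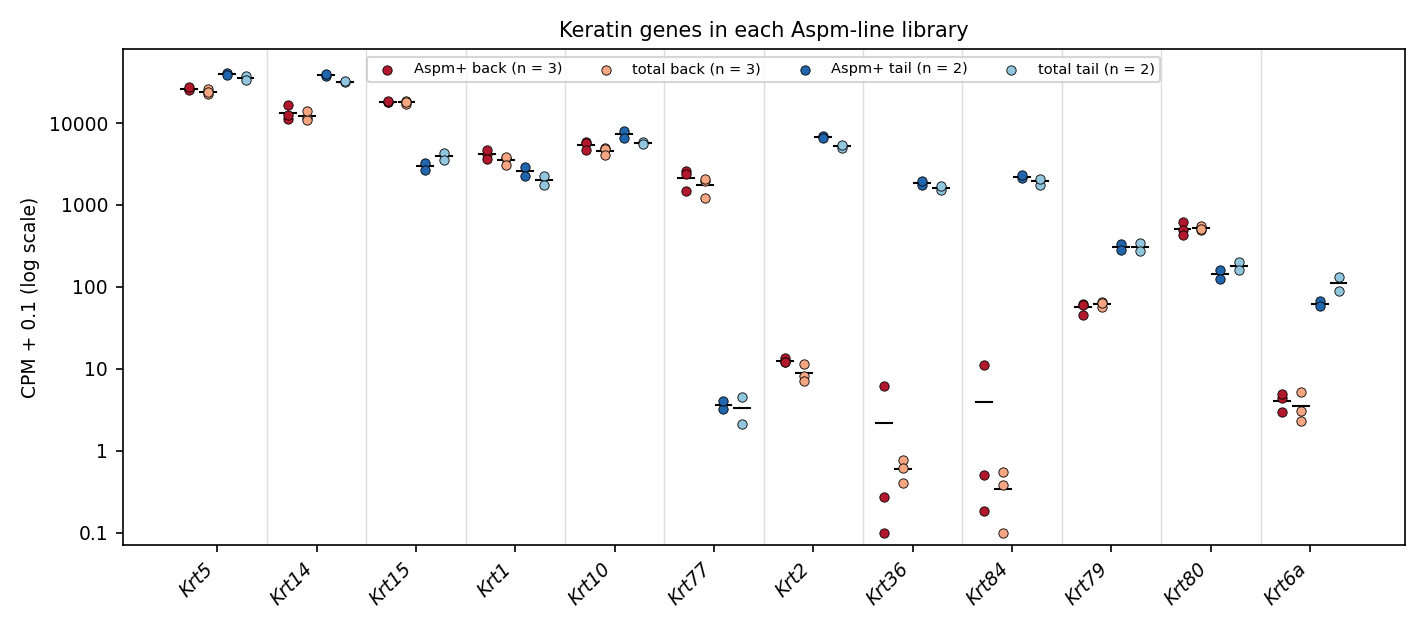
Level of 12 keratin genes in each Aspm-line library, as CPM plus 0.1 on a log axis. Points are libraries (3 back and 2 tail in each population) and short lines are group means. Krt77 lies high in back and near the floor in tail, Krt2, Krt36 and Krt84 lie high in tail, and back replicate 1 is the highest Aspm+ back point of Krt36 and Krt84.

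Genes of mitosis and G2 leaned to tail. Of 29 tested genes of mitosis and G2, 14 were higher in tail (48.3%, beside 12.7% of all genes tested) and 0 in back. The median change was -0.65. Ccnb2, a mitotic cyclin, was at 10.2, 10 and 14 CPM in back and 37.5 and 52.7 CPM in tail, 3.96-fold higher in tail (adjusted p = 2.61e-07). Plk1, a mitotic kinase, was at 6.46, 7.69 and 9.27 CPM in back and 25 and 24.9 CPM in tail (adjusted p = 1.19e-05). Cdc20, an activator of the anaphase-promoting complex, was at 25.1, 26.7 and 32.8 CPM in back and 65.9 and 80.5 CPM in tail, and Ccnb1 at 13.4, 17.7 and 17.3 CPM in back and 39.9 and 44.6 CPM in tail.

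Mki67 and Top2a, the markers of cycling cells used most often, did not pass. Mki67 was at 44.9, 194 and 95.7 CPM in back and 86.2 and 91.7 CPM in tail (adjusted p = 0.734), and Top2a at 75, 206 and 126 CPM in back and 119 and 115 CPM in tail (adjusted p = 0.708). In both genes the tail libraries lay inside the range of the back libraries, of which replicate 1 was lowest and replicate 2 highest. The summed mitosis and G2 list ran from 472 to 1023 CPM in back and from 987 to 1119 CPM in tail. Of 20 DNA replication genes 2 passed, both higher in back. These were Mcm6 (209, 324 and 361 against 202 and 203 CPM, adjusted p = 0.0294) and Pola1 (38.3, 85.2 and 69.6 against 27.5 and 34.2 CPM, adjusted p = 0.0322), and each lost its call without back replicate 2, without back replicate 4 and without either tail library. That is 10% of the list, beside 27.2% of all genes tested.

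Wnt signalling differed in its ligands and agonists. Of 35 tested pathway genes, 11 were higher in back and 7 in tail, 51.4% beside 27.2% of all genes tested. Rspo3, a secreted agonist that keeps Wnt receptors at the surface, was at 15.5, 14.8 and 15.4 CPM in back and 0 in both tail libraries, at least 91.5-fold higher (adjusted p = 1.16e-09). Wnt5a, a ligand of non-canonical signalling, was at 50, 42.5 and 28.3 CPM in back and 2.2 and 2.3 CPM in tail (adjusted p = 9.14e-08). Wnt6 was at 38.5, 40.2 and 37.8 CPM in back and 8.84 and 10.9 CPM in tail, 3.93-fold higher in back. Among ligands with smaller changes, Wnt3a was higher in back (54.5 ± 7.88 against 31.1 ± 0.0188 CPM) and Wnt4 was higher in tail (214 ± 29.6 against 396 ± 42.4 CPM). The receptor Fzd1 was higher in tail (-1.13 ± 0.20), and the co-receptors Lrp4 and Lrp6 were higher in back (0.76 ± 0.20 and 0.86 ± 0.18). Axin2, a feedback target of the canonical pathway, was higher in back at 107 ± 27.8 against 41.8 ± 1.14 CPM (adjusted p = 2.89e-05), and the secreted modulator Dkk3 was higher in tail at 23.1, 14.9 and 12.8 against 86.1 and 73.6 CPM (adjusted p = 1.87e-07).

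In the BMP and TGF-beta pathway, 12 of 30 tested genes were higher in tail and 7 in back, 63.3% beside 27.2% of all genes. The ligands were divided. Bmp3, an atypical ligand that can dampen BMP signalling, was at 90.2, 140.3 and 119.7 CPM in back and 3.13 and 2.18 CPM in tail, 44-fold higher in back (adjusted p = 9.54e-11). Bmp4 was at 66.9, 77.6 and 67.3 CPM in back and 12.3 and 14.2 CPM in tail, 5.33-fold higher in back (adjusted p = 5.62e-07), whereas Bmp7 averaged 44.7 ± 3.25 CPM in back and 90.1 ± 10.8 CPM in tail and was higher in tail (adjusted p = 6.52e-05). The intracellular inhibitor Smad6 was at 0.407, 0.427 and 0.357 CPM in back and 9.48 and 9.58 CPM in tail, and the decoy receptor Bambi at 2.7, 1.25 and 3.26 CPM in back and 20.4 and 28.2 CPM in tail. The common target genes Id1, Id2 and Id3 were all higher in tail, with log2 changes of -1.09 ± 0.34, -1.52 ± 0.41 and -0.78 ± 0.27.

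Of 15 tested Notch pathway genes 2 passed, 13.3% beside 27.2% of all genes tested. The ligand Dll1 was at 132, 88.6 and 116 CPM in back and 52.5 and 61.6 CPM in tail (adjusted p = 0.00123) and the nuclear effector Rbpj averaged 30.3 ± 2.35 CPM in back and 19.3 ± 2.79 CPM in tail (adjusted p = 0.0254, a call lost in 5 alternatives). Notch1 averaged 288 ± 76.3 CPM in back and 322 ± 38.5 CPM in tail and Jag2 849.7 ± 106 CPM in back and 661 ± 11.9 CPM in tail, and neither passed. Of 12 tested genes of ectodysplasin and hedgehog signalling, 3 were higher in each site, 50% beside 27.2% of all genes tested. Hhip, a membrane antagonist of hedgehog ligands, was at 0 in back and at 6.15 and 9.58 CPM in tail, at least 60.4-fold higher, and the effector Gli2 averaged 2.1 ± 1.84 CPM in back and 15.7 ± 1.51 CPM in tail (-2.92 ± 0.55, or -3.94 without back replicate 1). The ectodysplasin adaptor Edaradd and the related receptor Tnfrsf19 were higher in back, with log2 changes of 1.04 ± 0.21 and 0.95 ± 0.18.

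Lipid and sebaceous genes leaned to tail. Of 21 tested genes of the upper follicle and sebaceous gland, 14 were higher in tail and 1, Lrig1, was higher in back (219 ± 111 against 62.7 ± 23.2 CPM). Those that passed made up 71.4% of the list, beside 27.2% of all genes tested. Cidea, a lipid droplet protein, was at 0 in back and 15.9 and 14.6 CPM in tail, at least 117-fold higher (adjusted p = 3.38e-09). Far2, which makes fatty alcohols for wax, was at 2.44, 2.53 and 2.14 CPM in back and 94.7 and 72.3 CPM in tail (adjusted p = 9.6e-09). The fatty acid elongase Elovl3 was at 0.255, 0.0854 and 0 CPM in back and 34.2 and 27.4 CPM in tail, and the wax synthase Awat1 at 0 in back and 7.72 and 12.6 CPM in tail. Fabp5, the epidermal fatty acid binding protein, was at 22.8, 22 and 22 CPM in back and 177 and 159 CPM in tail. Without back replicate 1 the log2 change of Elovl3 was -9.04, beside -8.07 ± 0.72 with all libraries. The list summed to 737 to 1118 CPM in back and 1617 to 1895 CPM in tail. Sebocytes and keratinocytes share many of these genes, and the part of sebaceous cells in this group was not tested.

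Genes with the strongest evidence in tail at 50 CPM or more included enzymes and a channel of the epidermis. Aqp3, the water and glycerol channel of the basal epidermis (chr4:41092722-41098183, - strand), was at 94.4, 75.3 and 72.7 CPM in back and 1445 and 1360.0 CPM in tail, 17.4-fold higher in tail (adjusted p = 2.38e-14). Ces2g, a carboxylesterase, was at 22.2, 24.9 and 23.5 CPM in back and 251 and 257 CPM in tail (adjusted p = 3.06e-14). Adh1, an alcohol dehydrogenase that also oxidises retinol, was at 12.8, 10.1 and 14.1 CPM in back and 163 and 167 CPM in tail, and Degs1, a desaturase of ceramide synthesis, at 86.3, 82.9 and 78.2 CPM in back and 383 and 392 CPM in tail. Them5, Endou and Selenbp1 were 6.49-fold, 59.9-fold and 20.2-fold higher in tail, and without back replicate 1 the log2 change of Endou was -6.67, beside -5.95 ± 0.37 with all libraries.

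Several genes were at 0 in all 3 back libraries and clearly present in tail. Wfdc17, a small secreted protein of the whey acidic family, was at 47 and 60.9 CPM in tail, at least 414-fold higher (adjusted p = 5.25e-11). The connexin Gja3 was at 17.1 and 20.1 CPM in tail and at least 143-fold higher. Slurp2, a secreted Ly6-type protein, was at 8.11 and 14 CPM, Tigd4 at 7.28 and 14.1 CPM, the potassium channel Kcnk1 at 9.38 and 6.47 CPM and the fatty acid receptor Cd36 at 8.74 and 6.96 CPM in the 2 tail libraries, with bounds of 84.8, 81.8, 60.8 and 60.3-fold.

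Back had its own set of strong single genes. Gata3, a transcription factor of barrier formation, was at 537, 562 and 443 CPM in back and 85.3 and 78.7 CPM in tail, 6.26-fold higher in back (adjusted p = 8.48e-12). Sult5a1, a sulfotransferase, was at 140.1, 95.8 and 127 CPM in back and 3.76 and 2.67 CPM in tail, and Pla2g4f, a phospholipase, at 89.6, 92.6 and 109 CPM in back and 4.74 and 6.28 CPM in tail. Atp10a, a lipid flippase, was at 67.7, 55.2 and 65 CPM in back and 2.3 and 2.55 CPM in tail. Fibin was at 5.7, 4.64 and 8.05 CPM in back and 0 in tail (at least 36.8-fold higher), and Mrgprb11-ps, annotated as a pseudogene, was at 22.6, 36.8 and 21 CPM in back and 0 in tail (at least 161-fold higher). As Mrgprb11-ps belongs to a family of similar receptors, its counts may include reads of its relatives.

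Genes of the hair follicle were measurable in these libraries. Of 20 tested genes of the bulge and hair germ, 5 were higher in tail and 4 in back, 45% beside 27.2% of all genes tested. Gas1 was at 90.7, 99.9 and 75.9 CPM in back and 367 and 396 CPM in tail (adjusted p = 1.43e-10), Krt24 at 2.29, 1.4 and 1.27 CPM in back and 100.7 and 116 CPM in tail, and the matrix protein Tnc at 6.01, 5.27 and 8.61 CPM in back and 69.5 and 100.5 CPM in tail. The chemokine Cxcl14 was higher in back at 479, 314 and 562 against 94.9 and 118 CPM. The bulge markers Cd34 (0.346 ± 0.313 CPM in back and 1.01 ± 0.675 CPM in tail) and Lgr5 (0.34 ± 0.147 CPM in back and 0.824 ± 0.286 CPM in tail) were low at both sites and did not pass.

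More fibroblast and melanocyte markers were higher in tail than in back. Fibroblast genes summed to 2.42 to 8.91 CPM in back and 30.8 to 48.5 CPM in tail. Among 10 tested members 5 were higher in tail (50%, beside 12.7% of all genes tested). Dcn was at 0.56, 0.342 and 1.32 against 15.5 and 13.2 CPM (adjusted p = 1.06e-05), and the calls of Col5a1, Col5a2 and Col6a2 were lost without tail replicate 1. Melanocyte genes summed to 27.1 to 38.7 CPM in back and 327 to 390 CPM in tail, mostly from Gpnmb (21.3, 6.66 and 7.49 against 299 and 364 CPM), which other cells also express. Of its 10 tested members 5 were higher in tail and 1, the melanocyte regulator Mitf, was higher in back (14.9 ± 1.83 against 4.75 ± 1.12 CPM, 1.65 ± 0.47), a call lost without tail replicate 1 (1.41). Together they made up 60% of the tested melanocyte genes, beside 27.2% of all genes tested. The pigment enzyme genes were far lower, with Dct at 0.796 ± 0.95 CPM in back and 8.98 ± 1.72 CPM in tail and Tyr at 0 in back and 1.61 and 0.933 CPM in tail. The fibroblast gene Twist2 was at 0 in all 5 Aspm+ libraries. Leaving out back replicate 4 gave -5.03 for Dcn, and leaving out back replicates 1 and 2 gave -5.57 for Gpnmb and -5.11 for Dct, beside -4.33 ± 0.61, -4.83 ± 0.46 and -3.40 ± 0.87 with all libraries.

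The other cell type lists were lower still or divided. Merkel cell genes summed to 0.509 to 2.11 CPM in back and 7.33 to 12.6 CPM in tail, with Sox2 and Chga at 0 in all 5 Aspm+ libraries. Tubb3 passed among the 5 tested (0.153, 0 and 0 CPM in back and 6.59 and 11.8 CPM in tail, -7.58 ± 1.02, or -10.68 without back replicate 1). Endothelial and mural genes summed to 46.7 to 69.6 CPM in back and 113 to 122 CPM in tail, nearly all from Cspg4 (51.9 ± 13.2 CPM in back and 115 ± 7.64 CPM in tail), a proteoglycan that keratinocytes also make. The endothelial marker Pecam1 was at 0.51 ± 0.153 CPM in back and 0.671 ± 0.157 CPM in tail. Of 10 tested members Cspg4 and Cldn5 were higher in tail and Acta2 was higher in back, 30% beside 27.2% of all genes tested. The call of Cldn5 was lost with DESeq2 and without any 1 of the 5 Aspm+ libraries, and that of Acta2 without back replicate 2 or either tail library. Adipocyte and muscle genes summed to 3.01 to 3.93 CPM in back and 2.24 to 3.32 CPM in tail. The part of these cells in the site differences was not tested. Xist, the transcript of the inactive X chromosome, was at 972, 1616 and 994 CPM in back and 440.4 and 506 CPM in tail (adjusted p = 0.006). Its log2 change was 1.34, and the call was lost without tail replicate 1 (1.22). In the totals its change of 0.83 did not pass. The list of 8 sex-linked genes summed to 972 to 1616 CPM in back and 441 to 506 CPM in tail, nearly all from Xist, its only tested member. The part of sex in this difference was not tested.

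**Figure D4:**
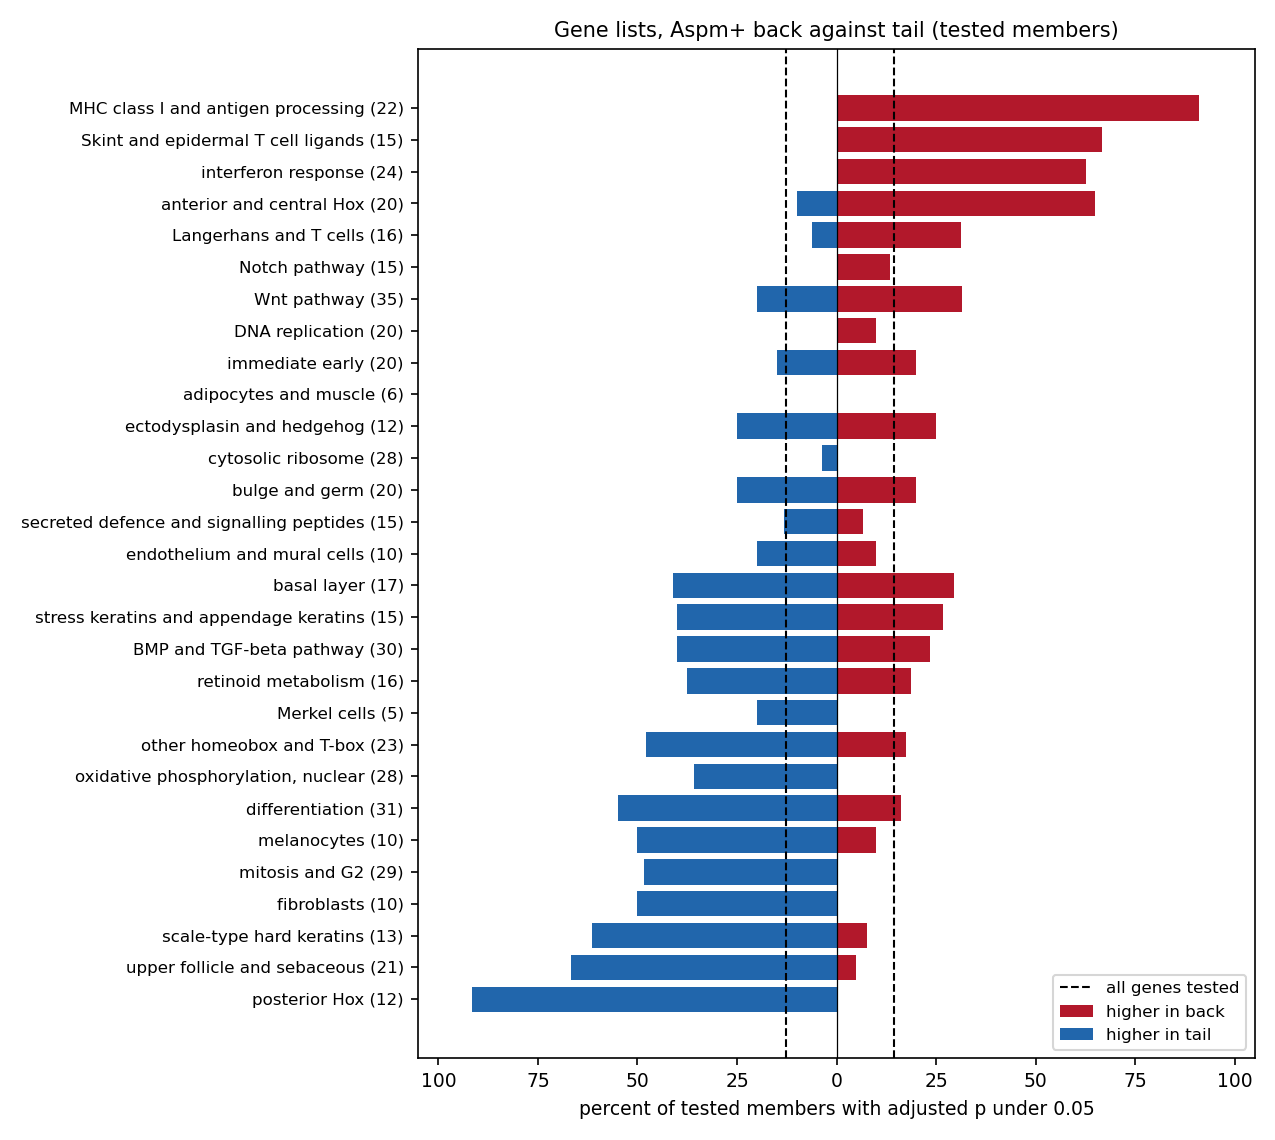
Percent of tested members that passed in Aspm+ back against tail, for each list with at least 5 tested members, with the number tested in parentheses; red bars to the right are higher in back and blue bars to the left are higher in tail. Dashed lines mark all genes tested (14.5% and 12.7%). Among the lists drawn, MHC class I genes reach furthest to the right (20 of 22) and posterior Hox genes furthest to the left (11 of 12).

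Most genes that differed between back and tail in the Aspm+ cells had the same direction in the totals of the same line. In the totals 4017 of 17493 genes passed (23%), 2061 higher in back (11.8%) and 1956 higher in tail (11.2%). Of these, 3400 also passed in the Aspm+ cells, all with the same sign, which is 71.3% of the Aspm+ calls and 84.6% of the calls in the totals. Among the 4766 genes that passed in the Aspm+ cells, 4736 (99.4%) had the same sign in the totals, beside 83.6% of all genes tested. Across 10382 genes with a mean of at least 5 CPM in the 10 libraries, the log2 changes of the 2 populations correlated at a Pearson r of 0.960, and across all 17493 genes tested at 0.751; genes are not independent replicates, the labelled cells may be part of the total, and same-numbered libraries of the 2 populations deviated together.

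**Figure D5:**
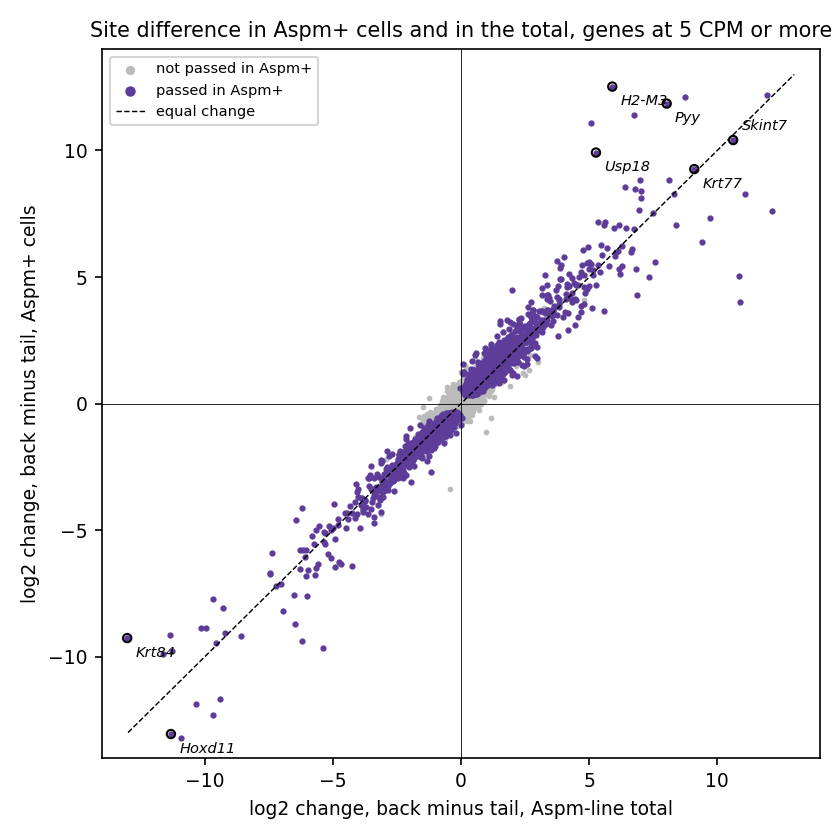
Log2 change, back minus tail, in the Aspm-line totals (x axis) against the Aspm+ cells (y axis) for 10382 genes with a mean of at least 5 CPM; purple points passed in the Aspm+ cells and grey points did not. Points follow the dashed line of equal change, and H2-M3 (12.52 against 5.90) and Usp18 (9.92 against 5.26) lie above it.

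A direct test of the difference between the site differences found 0 genes with edgeR, with a lowest adjusted p of 0.157 and 349 genes (2.00%) at an unadjusted p under 0.05. DESeq2 found 2, limma-voom found 0 and edgeR without a low-count filter found 17. The lowest p belonged to Grem1, a secreted BMP antagonist. It averaged 1.44 ± 0.824 CPM in Aspm+ back and 0 in Aspm+ tail, against 2.16 ± 1.44 CPM in total back and 6.1 ± 0.911 CPM in total tail, a difference of 9.53 ± 1.67 on the log2 scale. The size of this difference depends on how the fit treats the 0 counts in Aspm+ tail. Grem1 was called by DESeq2 (adjusted p = 0.00402) and by edgeR without total back replicate 2 (adjusted p = 0.0453). A miss in this test does not show that the populations were alike: the median standard error of the difference at 5 CPM or more was 0.311, and in simulated data with these library sizes 9 of 50 genes changed by 2-fold and 41 of 50 changed by 4-fold were recovered. The simulation drew every library independently and changed only genes at 5 CPM or more, in the Aspm+ tail libraries. Its rates therefore do not hold for genes near 0 or for libraries that deviate together.

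Some genes at or near 0 in the Aspm+ cells of a site had counts in the totals of that site. Usp18 was at 1.15 and 0.383 CPM in the total tail libraries and differed by 4.65 ± 1.02 between the populations (unadjusted p = 0.000132). H2-M3 was at 0.637 and 0.383 CPM in total tail (6.62 ± 1.90, unadjusted p = 0.00206), and H2-Q7 averaged 0.659 ± 0.152 CPM there (3.37 ± 1.05, unadjusted p = 0.00385). With an Aspm+ group at 0, as for H2-M3 and for Slurp2 and Cd36 below, the size of the difference depends on how the fit treats 0 counts. For H2-M3 limma-voom gave 4.30. Slurp2 was at 0.0702, 0.319 and 0.218 CPM in total back, where the Aspm+ cells had 0 (-5.42 ± 1.35, unadjusted p = 0.000593), and Cd36 averaged 1.11 ± 1.41 CPM there (-7.98 ± 2.49, unadjusted p = 0.00412). Each of these had an adjusted p of 1 in edgeR, and H2-M3, H2-Q7, Usp18 and Cd36 were among the 17 genes called when no low-count filter was used. Atp10a was the exception in level, with clear counts in all 4 groups: it averaged 62.6 ± 6.57 and 2.42 ± 0.179 CPM in Aspm+ back and tail and 46.8 ± 8.33 and 4.6 ± 0.817 CPM in the totals, a difference of 1.35 ± 0.33 (unadjusted p = 0.000379, adjusted p = 1).

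The leading groups had similar counts in the totals. Posterior Hox genes were higher in tail in 12 of 12 tested, class I genes higher in back in 21 of 22, interferon genes in 17 of 24 and Skint family and related ligands in 10 of 15. Mitosis and G2 genes were higher in tail in 14 of 29 and differentiation genes in 15 of 31. Over all genes tested in the totals, 11.8% were higher in back and 11.2% in tail. In the list of scale and hard keratins, which also holds Krt2, 10 of 13 were higher in tail in the totals beside 8 of 13 in the Aspm+ cells. Krt31, Krt81 and Krt86 passed in the totals and not in the Aspm+ cells, and Krt82 the other way, which is no test of the difference. The test of the difference had an adjusted p over 0.05 for each of these genes. Krt84, Krt36 and Krt83 of the same list were among the 17 genes called without a low-count filter (adjusted p = 1.52e-23, 0.00023 and 0.0415). No other setting called them, and the fit without a filter gave far lower adjusted p-values to other genes as well. Igfbp3 and Dkk3 had unadjusted p-values of 0.0117 and 0.0155, with Igfbp3 at 736 ± 58.7 and 255 ± 39.1 CPM in the Aspm+ cells and 1113 ± 334 and 216 ± 35.3 CPM in the totals of back and tail.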

How the data were processed

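RNA was sequenced from Aspm+ and total IFE cells as poly(A)-selected, low-input, non-directional libraries, per the labels' protocols. Per the submitters' processing notes, reads were handled with Trim Galore 0.6.0, cutadapt, FastQC, STAR 2.7.0e and DESeq2 1.26.0 on GRCm38 (mm10). The counting tool, its strand setting and its annotation are not given in the sources used here. The authors deposited raw counts per gene for each library. All gene identifiers matched GENCODE M21, which gave symbols and positions. The deposited counts were fitted in edgeR 4.0.16 (R 4.3.3, limma 3.58.1) with TMM scaling, filterByExpr at a minimum count of 10 and robust quasi-likelihood tests over all 28 libraries in 12 groups, which share the estimate of spread. Of the genes with counts, 17493 were tested. The 3 contrasts were Aspm+ back against tail, total back against tail, and the difference between them. P-values were adjusted by Benjamini-Hochberg over all genes tested. A group at 0 was set to a floor of 3 counts per library for a bound, and counts of 1 to 3 were given an exact 95% interval, which covers counting error only.

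The members, the 31 gene lists and the tests were chosen with earlier results of these data known. Genes named by rule are the 3 markers and Aspm, the 12 with the largest change each way at 5 CPM or more in the higher group and the 8 with the lowest p each way at 50 CPM or more (both passed, without overlap between groups and without predicted genes), and the 4 with the lowest p in each list. Other genes were named after their values were seen. Same-numbered Aspm+ and total libraries deviated together (correlations of deviations 0.689, 0.695 and 0.614 in back and 0.301 in tail over 10566 genes). The numbers were therefore treated as pairs in an alternative fit of the difference between the site differences. The deviations of 2 tail libraries mirror each other, so 0.301 is a single value for both tail pairs and is weak evidence on its own. The reported values come from the fit without pairs. The procedure was tested on simulated counts for all 17493 genes, where it recovered 4, 32, 46 and 50 of 50 genes changed by 1.5, 2, 4 and 8-fold between Aspm+ back and tail, with 4 false among 136 calls. The changed genes were at a mean of 5 CPM or more, and the simulated libraries were independent of each other. They were also a far smaller share of the genes than the 27.2% that passed between Aspm+ back and tail. Adjusted p-values depend on that share, so the recovery of small changes need not hold for the real comparison. Alternatives were DESeq2's size factors, library totals, DESeq2 1.42.0, limma-voom, no filter, only the compared groups, the fit without 1 total library with few genes, a replicate block and leaving out each Aspm library.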

Additional observations from a re-analysis of the deposited data

How the results depend on the processing

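The number of genes that passed in Aspm+ back against tail was 3911 to 5851 under the 8 alternatives that kept every Aspm library, and 2597 to 4540 when 1 Aspm+ library was left out, lowest without tail replicate 2 and next lowest without tail replicate 1 (2861). In the totals the number ran from 2008 to 3739 when 1 total library was left out, lowest without tail replicate 1 and 2352 without tail replicate 2. The lone tail library was then assumed to vary like the other groups. The difference between the site differences gave 2 genes with DESeq2's test, 17 without a low-count filter, and 0 to 1 when 1 Aspm library was left out; the cause was not tested. With the replicate block that pairs same-numbered Aspm+ and total libraries it gave 0, as without it. Deviations of back and tail libraries of the same number had correlations of 0.084 and -0.0285 in Aspm+ cells and 0.180 and 0.041 in totals. The deviations of 2 tail libraries mirror each other, so these values cannot decide whether the numbers pair the sites. With the number as a replicate block 5197 genes passed in Aspm+ cells and 4470 in totals. These held 4397 of the 4766 Aspm+ calls made without the block. Among the genes named by rule, Cldn5, Lcn2, Mcm6 and Wfdc12 were no longer called. Of 128 genes named by rule that passed, 108 passed with the same sign under every alternative and 20 lost the call in at least 1; none of the 128 reversed. Values that were not called changed sign for Pyy in the difference (3.83 with all libraries, -0.27 to 4.9 with 1 left out, negative without total tail replicate 1), Hoxd11 in the difference (-1.74 with all, -2.19 to 0.12 with 1 left out, positive without total back replicate 1) and Aspm (-0.14 with all, -0.32 to 0.056 with 1 left out, positive without Aspm+ back replicate 1). With 2 tail libraries, small changes could not be detected reliably.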

Other observations

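Calls among genes of the ribosome were few, and those among nuclear genes of oxidative phosphorylation were all higher in tail. Of 28 cytosolic ribosome genes 1 passed, Rpl32, higher in tail (1172 ± 185 CPM in back and 1818 ± 92.6 CPM in tail, adjusted p = 0.0217), a call lost without back replicate 1 or 2 or either tail library. Of 28 nuclear genes of oxidative phosphorylation 10 were higher in tail (35.7%, beside 12.7% of all genes tested) and 0 in back, with a median change of -0.37, and their sum ran from 4508 to 5736 CPM in back and from 6366 to 6613 CPM in tail. Ndufv1, a subunit of complex I, was at 131, 132 and 168 CPM in back and 244 and 233 CPM in tail (adjusted p = 0.00113). Atp5a1, Atp5b and Ndufs3 of this list lost their calls without tail replicate 2, with log2 changes of -0.51, -0.51 and -0.63. Of 20 immediate early genes 4 were higher in back and 3 in tail, 35% beside 27.2% of all genes tested. Ier3 was higher in tail (-2.79 ± 0.27, adjusted p = 2.72e-08), and Dusp1, a phosphatase of stress kinases, was higher in back (1.38 ± 0.25, adjusted p = 0.00019).

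Genes of retinoid metabolism also went both ways, with 6 of 16 tested higher in tail and 3 in back, 56.25% beside 27.2% of all genes. Aldh1a1, which makes retinoic acid, was at 14.6, 9.31 and 10.8 CPM in back and 0.391 and 0.249 CPM in tail, 36.1-fold higher in back (adjusted p = 1.01e-05). The carrier Crabp2 was at 4.58, 2.79 and 2.55 CPM in back and 30.1 and 27.8 CPM in tail (adjusted p = 4.72e-08), and the retinol receptor Stra6 was at 1.22, 0.456 and 3.01 CPM in back and 36.7 and 15.2 CPM in tail (adjusted p = 0.000179; log2 change -4.13 ± 0.72, or -3.37 without tail replicate 1 and -5.05 without back replicate 4). Secreted defence and signalling peptides were sparse, and of 29 members 15 could be tested and 3 passed, 2 higher in tail and 1 in back, 20% beside 27.2% of all genes tested. Of the 2 in tail, Wfdc12 lost its call with DESeq2 and without any 1 Aspm+ library, and Lcn2 without back replicate 2 or tail replicate 1. Of the genes that name the lines of the series, Slc1a3 was higher in back (19.4 ± 2.06 CPM in back and 11.5 ± 3.47 CPM in tail, adjusted p = 0.0271), a call lost without back replicate 4 or tail replicate 1, when the fit held the compared groups alone, and when genes of low count were kept.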
